A study of Homo sapiens with 59 samples.

Results

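Ribosome biogenesis factors are the nucleolar and nuclear proteins that make ribosomes but are not part of the finished particle. The 41 genes described here were listed by name for their known roles, with earlier results of these data known. Their shares set beside those of all genes are therefore not independent of these data. All 41 were found among the 34622 genes listed in the deposited tables. They comprise 6 genes of RNA polymerase I and its factors, 5 of abundant nucleolar proteins, 4 of the box C/D particle, 4 of the box H/ACA particle, 2 of rRNA base modification, 11 of small subunit assembly and 9 of large subunit assembly. Their mRNAs were measured by bulk RNA-seq in 59 libraries of Jurkat, an established human T-cell leukaemia line, collected at day 3.

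In 7 groups the medium was restricted to 25% of 1 essential amino acid, as labelled: histidine, methionine, phenylalanine, tryptophan, isoleucine, leucine or valine, with 5 libraries each. Histidine, methionine, phenylalanine and tryptophan restriction each had a control group of its own, with 5 libraries. Isoleucine, leucine and valine restriction were set against 1 common branched-chain control group of 4 libraries, numbered 1, 3, 4 and 5, so those 3 comparisons share their controls. The labels do not give the composition of the control media. All groups are the same cell line, and nothing in the labels says that replicates came from separate cultures, so the spread behind each p-value is that of these libraries and may be technical.

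Ribosome production starts in the nucleolus, where RNA polymerase I transcribes the long precursor of the ribosomal RNAs. Small nucleolar ribonucleoproteins then mark that precursor, the box C/D particles by ribose methylation and the box H/ACA particles by pseudouridylation, while assembly factors fold it, cut it and load ribosomal proteins. The pathway is among the most costly of a growing cell, and the transcription factor MYC is known to raise many of its genes, including in T-cell leukaemia.

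MYC and its relatives bind the hexamer CACGTG, the canonical E-box, which reads the same on both strands. The hexamer was present in the promoter, 250 bases before to 50 after the start, of 16 of the 36 genes that matched a RefSeq promoter entry (44.4%), against 2396 of 27305 genes in the whole RefSeq table (8.77%). Among the genes with the hexamer were both rRNA base modification genes, 4 of 10 for small subunit assembly and 3 of 7 for large subunit assembly. The 4 stretches shown belong to the genes with the largest called rise in any comparison among those whose hexamer lies before the start or within the first 30 bases after it, on RefSeq's GRCh38.p14. NOP2, with a larger rise than 3 of the 4, holds the hexamer farther into the transcribed part and is not shown. They are written 5′ to 3′ on the gene's own strand, with the hexamer in capitals.
PES1: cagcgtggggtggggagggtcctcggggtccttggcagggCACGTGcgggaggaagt
MRTO4: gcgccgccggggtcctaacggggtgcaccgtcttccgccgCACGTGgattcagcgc
RRP9: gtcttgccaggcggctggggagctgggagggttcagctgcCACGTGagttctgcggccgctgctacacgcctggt
EBNA1BP2: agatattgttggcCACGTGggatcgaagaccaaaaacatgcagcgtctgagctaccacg
The PES1 stretch is chr22:30591881-30591937 on the minus strand, with the hexamer's first base at position 14 after the start. MRTO4's is chr1:19251779-19251834 on the plus strand, with the hexamer's first base at position 15 after the start. For RRP9 the stretch is chr3:51941875-51941949 on the minus strand, with the hexamer's first base at position -5, before the start. That of EBNA1BP2 is chr1:43172762-43172820 on the minus strand, with the first base at position -237. A match of letters is a description of these windows and says nothing of whether a factor was bound.

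Values are the authors' normalised counts, scaled separately in each of the 7 deposited tables, and the normalised counts of a library summed to between 14949649 and 20539287. Every fold change compares restricted with control libraries of the same table on log2(normalised count + 1), and a gene was called at a limma adjusted p below 0.05. All 41 genes passed the filter on low values in all 7 tables, and the lowest value in any library was 100.1, for POLR1B in the histidine table. Of 10 T-lineage markers 9 were above 10 normalised counts in every library, the exception being CD28 at 8.58 to 288. MS4A1 of B cells and CSF1R and MPO of myeloid cells were at 0 or not listed. CD79A, at 202 to 817, COL1A1, at 134 to 4358, and KRT18, at 39.5 to 526, were detected in all libraries. COL1A1 reached 4358 in histidine controls and 1396 in phenylalanine controls, against at most 326 and 316 in the restricted libraries of those comparisons. EPCAM reached 200 in phenylalanine controls and 8.12 in phenylalanine-restricted libraries. The part of these differences in the results was not tested. In bulk RNA a lower value from fewer cells of a kind and from less mRNA per cell cannot be told apart. The number of reads behind each library is unknown, so no counting interval is given.

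The map of fold changes by gene shows all 7 comparisons. Methionine restriction raised 25 of the 41 genes and lowered 3. Tryptophan restriction lowered all 41 against its own controls, although scaling the libraries to equal totals turned the sign of UBTF (0.11) and LTV1 (0.0047), and the tryptophan controls stood apart from all other controls. Histidine restriction called 8 higher and 6 lower, phenylalanine restriction called 5 higher and 3 lower, leucine restriction 8 higher and 0 lower and valine restriction 10 higher and 2 lower. Isoleucine restriction called none of the 41 and none of all genes. The shares called over all genes tested were 27.9% for histidine, 53.2% for methionine, 10.2% for phenylalanine and 51.3% for tryptophan. They were 7.75% for leucine and 12.5% for valine. For histidine the share of the 41 genes that was called, 34.1%, was near that over all genes.

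**Figure D1:**
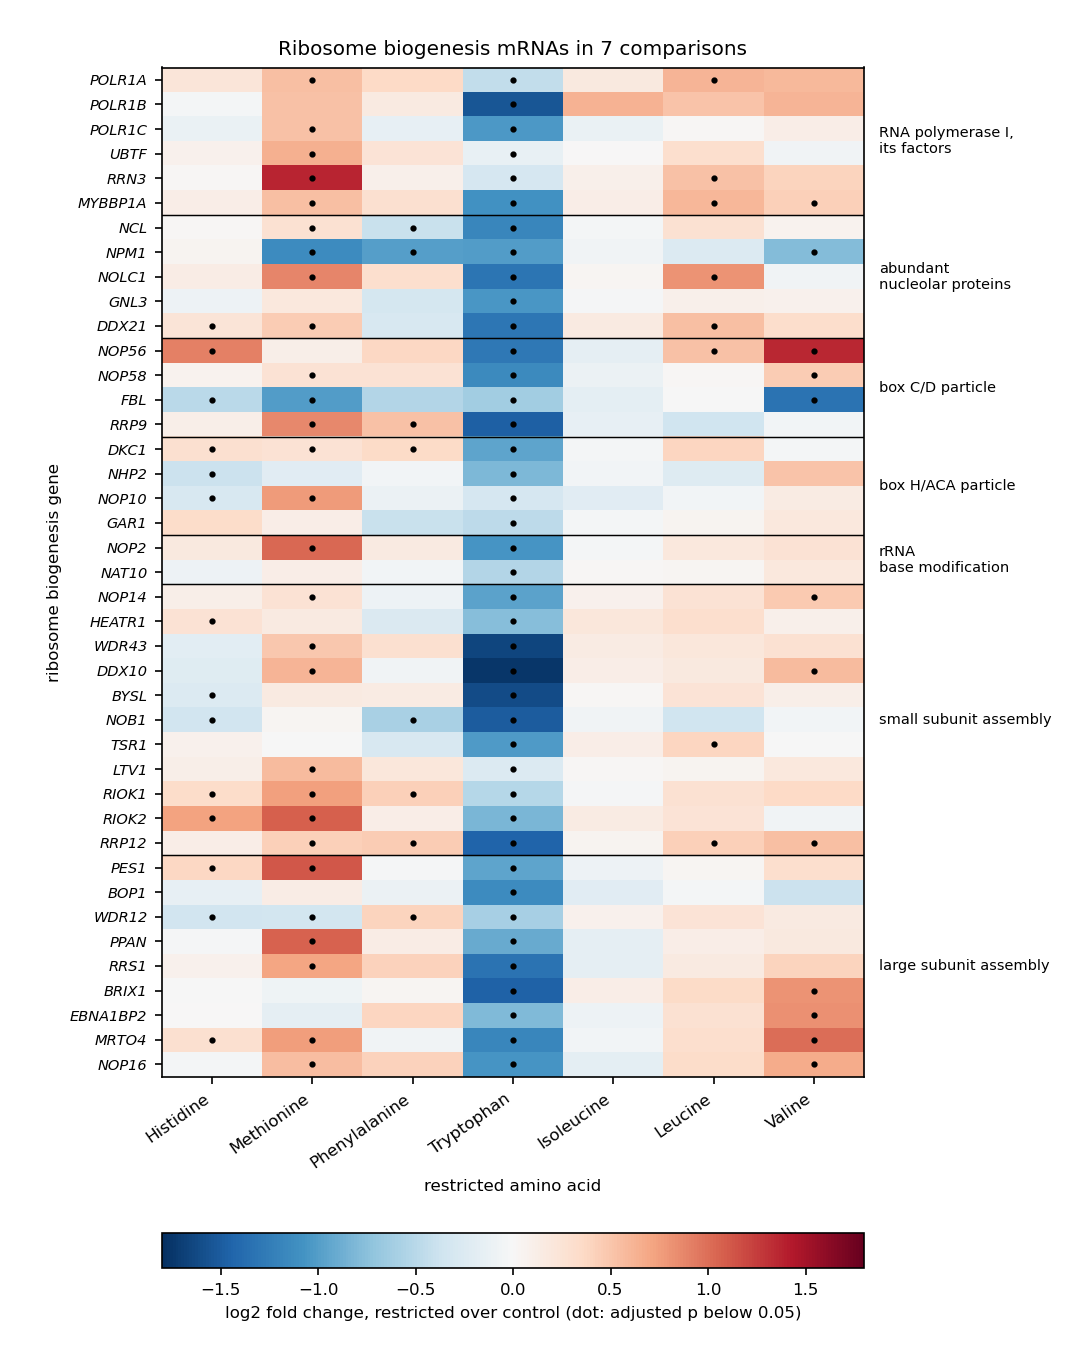
Log2 fold change of restricted over control libraries for the 41 genes (rows, grouped by role) in the 7 comparisons (columns), with a dot where the limma adjusted p was below 0.05. The tryptophan column is blue throughout in the deposited scaling (UBTF and LTV1 are above 0 with equal totals), methionine is mostly red with NPM1, FBL and WDR12 the called genes in blue, and isoleucine holds no dot.

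In methionine restriction 25 of the 41 genes rose, while 78 of 79 genes for the ribosome's own proteins fell. With the 3 that fell (5 without methionine control library 4), 28 were called, where 53.2% of all 16889 genes tested were called, 27.8% higher and 25.4% lower. The median log2 fold change was 0.46 over the 41 genes and 0.02 over all genes. In 25 of the 41 genes the restricted and control libraries did not overlap, 22 of them with restricted libraries higher. How many of all genes lay apart in this way was not counted, here or in the other comparisons. Such counts therefore have no background and do not set the 41 genes apart. Of the 79 cytosolic ribosomal protein genes in the same table, 78 fell and 0 rose, with a median of -1.27, and RPL3, a large subunit protein near the catalytic centre, averaged 8861 ± 765 normalised counts in restricted libraries and 54873 ± 4419 in controls (SD, n = 5 each; log2 fold change -2.63, adjusted p = 1.27e-11).

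Of the 6 RNA polymerase I genes 5 rose and none fell. The largest change of the 41 genes in this comparison was in RRN3, the factor that makes the polymerase competent to start on the rRNA promoter (chromosome 16, 15060022 to 15094317, minus strand, GRCh38). RRN3 had 3212, 2843, 3218, 3309.8 and 3788 normalised counts in methionine-restricted libraries, against 1155, 1296, 1329.9, 1135 and 1425 in methionine controls (log2 fold change 1.37 with SE 0.09, adjusted p = 2.11e-08). Every restricted library was above every control, by a wide gap. RRN3 has 2 named pseudogenes and lies opposite PDXDC1, so its counts are less certain than those of a single-copy gene. UBTF, which coats the rRNA genes, rose (0.63, adjusted p = 2.29e-06), as did the largest catalytic subunit POLR1A (0.54, adjusted p = 0.000755), the subunit POLR1C shared with RNA polymerase III (0.53, adjusted p = 0.0057) and the nucleolar repressor MYBBP1A (0.54, adjusted p = 4.72e-05). POLR1B, the other large catalytic subunit, had 288, 277, 617, 336 and 446 normalised counts in restricted libraries, against 398, 165, 340.0, 164 and 313 in controls, and was not called (0.53, adjusted p = 0.12). Its libraries overlapped and spread widely within each group. The 9 other RNA polymerase I genes did not share the direction, with 2 higher, 4 lower and POLR1E, a polymerase subunit, at -1.57 (adjusted p = 1.64e-08).

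Among the abundant nucleolar proteins, 3 of 5 rose and NPM1 fell. NPM1, nucleophosmin, a histone and pre-ribosome chaperone (chromosome 5, 171387116 to 171411137, plus strand), had 8888, 8786, 8103, 9486 and 10522 normalised counts in restricted libraries, against 17074, 20715, 23710.4, 16541 and 23349 in controls (log2 fold change -1.14 with SE 0.11, adjusted p = 9.79e-07). The highest restricted library was well under the lowest control. NPM1 has 45 named pseudogenes, among which pseudoalignment can divide reads. Nucleolin, NCL, which binds pre-rRNA, had 12391, 12009.6, 12832, 12866 and 14414 normalised counts in restricted libraries, against 10692, 10985, 10685, 10449 and 10308 in controls (log2 fold change 0.28 with SE 0.06, adjusted p = 0.00159). That rise was small but without overlap. NOLC1, a scaffold of the nucleolus and of Cajal bodies, averaged 5709.7 ± 349 normalised counts in restricted libraries and 3106 ± 361 in controls (SD, n = 5 each; log2 fold change 0.88 with SE 0.08, adjusted p = 7.18e-07), and the RNA helicase DDX21 rose by less (0.46, adjusted p = 2.34e-05).

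The genes of 1 box C/D particle moved in opposite directions. FBL, fibrillarin, the methyltransferase of the particle (chromosome 19, 39834458 to 39846414, minus strand), had 2114, 2456, 2055, 2445 and 2559 normalised counts in methionine-restricted libraries, against 3814, 4999, 5221, 4045 and 5451 in controls (log2 fold change -1.01 with SE 0.10, adjusted p = 2.28e-06). Its groups did not overlap. RRP9, which belongs to the U3 form of the particle and carries the hexamer shown above, rose (0.86, adjusted p = 1.03e-05), and the scaffold protein NOP58 rose slightly with overlapping libraries (0.26, adjusted p = 0.0171). The partner scaffold NOP56 was not called (0.10, adjusted p = 0.389). In the box H/ACA particle DKC1, the pseudouridine synthase, had 1980.2, 2062, 2086, 2172 and 2563 normalised counts in restricted libraries, against 1772, 1916, 2174, 1622 and 1606 in controls (log2 fold change 0.26 with SE 0.09, adjusted p = 0.0324), with overlap, and 6 of the alternatives tried lost that call (adjusted p up to 0.0826). NOP10, the smallest protein of that particle, rose more (0.76, adjusted p = 6.58e-06), while GAR1 (0.12, adjusted p = 0.452) and NHP2 (-0.20, adjusted p = 0.082) did not pass.

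NOP2, a cytosine methyltransferase of large subunit rRNA, had 2852, 2709.6, 2527, 3051 and 2594 normalised counts in methionine-restricted libraries, against 1156, 1294, 1283, 1412 and 1594 in controls (log2 fold change 1.03 with SE 0.09, adjusted p = 3.06e-07). All restricted libraries were above all controls. NAT10, the rRNA acetyltransferase, was not called (0.12, adjusted p = 0.102). For small subunit assembly 7 of 11 genes rose and none fell. RIOK2, a kinase of late precursors, averaged 1288 ± 38.2 normalised counts in restricted libraries and 626 ± 144 in controls (SD, n = 5 each; log2 fold change 1.07 with SE 0.13, adjusted p = 1.36e-05), its relative RIOK1 rose too (0.74, adjusted p = 5.68e-06), and the early processome genes WDR43 (0.49, adjusted p = 3.5e-05) and NOP14 (0.25, adjusted p = 0.00976) rose by less. DDX10 (0.61, adjusted p = 0.000394), LTV1 (0.57, adjusted p = 8.12e-05) and RRP12 (0.42, adjusted p = 0.000187) completed the 7. BYSL, bystin, needed for early small subunit precursors, had 817, 872, 834, 1064 and 869 normalised counts in restricted libraries, against 684, 944, 790.2, 794 and 787 in controls, and was not called (0.16, adjusted p = 0.195). NOB1, the nuclease that makes the final cut of small subunit rRNA, was at 0.04 (adjusted p = 0.767).

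Large subunit assembly gave 5 genes higher and 1 lower of 9, and split the trimer of PES1, BOP1 and WDR12 that is needed for large subunit rRNA processing. PES1, whose promoter stretch is printed above, had 2678, 2614, 2529, 3069.6 and 2677 normalised counts in methionine-restricted libraries, against 1275, 1179, 1279, 1256 and 1248 in controls (log2 fold change 1.12 with SE 0.07, adjusted p = 1.12e-08). The controls lay within a narrow range far under the restricted libraries. WDR12 fell, averaging 667 ± 37.7 in restricted libraries and 842 ± 41.7 in controls (SD, n = 5 each; log2 fold change -0.34 with SE 0.07, adjusted p = 0.00148), and BOP1 was not called (0.13, adjusted p = 0.168). PPAN, a large subunit assembly factor, rose (1.06, adjusted p = 2.21e-07), although it overlaps the read-through gene PPAN-P2RY11 on the same strand. RRS1 (0.71, adjusted p = 5.05e-05), MRTO4 (0.75, adjusted p = 3.71e-05) and NOP16 (0.55, adjusted p = 0.00382) also rose.

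Small and large subunit factors outside the 41 mostly rose in methionine restriction as well. Over all genes tested 27.8% rose and 25.4% fell. Of 42 other small subunit factors 30 rose and 0 fell (median 0.42), the most changed called gene being PNO1, a partner of NOB1 (1.33, adjusted p = 5.12e-08). Of 45 other large subunit factors 32 rose and 4 fell (median 0.49). Of 10 snoRNP assembly factors 4 rose and 1 fell, with ZNHIT6 of the box C/D assembly line at 1.05 (adjusted p = 1.28e-07). Among 22 rRNA trimming and RNase MRP genes 8 rose and 4 fell. The shares called in these lists, 50% and 54.5%, were near the 53.2% over all genes. Among 19 RNA polymerase III and TFIII genes 10 rose and 3 fell. MYC fell, averaging 1781 ± 256 normalised counts in restricted libraries and 3442 ± 565 in controls (SD, n = 5 each; log2 fold change -0.94, adjusted p = 2.17e-05). CD79A, a B-lineage marker, was at 653 to 817 normalised counts in methionine-restricted libraries and 202 to 237 in controls, with MS4A1 not listed, and the part of this difference in the results was not tested.

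**Figure D2:**
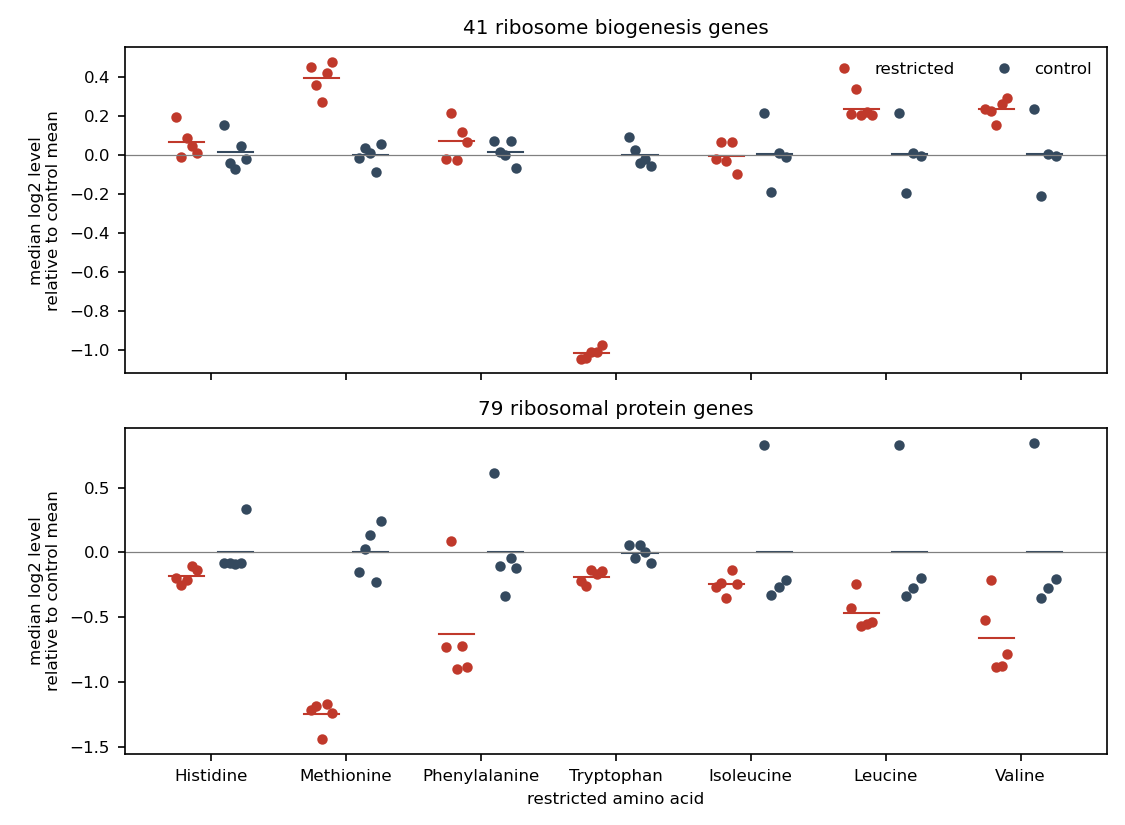
Median log2 level of the 41 ribosome biogenesis genes (upper panel) and of 79 ribosomal protein genes (lower panel) in each library, relative to the control mean of the same table; points are libraries and lines are group means, with restricted libraries to the left of controls. In methionine restriction the upper points lie at 0.27 to 0.48 and the lower ones at -1.44 to -1.17, and in tryptophan restriction the upper points lie at -1.04 to -0.97.

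Tryptophan restriction lowered all 41 genes against the tryptophan controls in the deposited scaling, UBTF and LTV1 being above 0 with equal totals, where 51.3% of 16630 genes tested were called and 27.7% were called lower. The median log2 fold change was -1.03, against 0.03 over all genes. In 39 of the 41 genes the groups did not overlap (not counted over all genes). With the libraries scaled to equal totals 37 genes were called, UBTF was at 0.11 (adjusted p = 0.0832) and LTV1 at 0.0047 (adjusted p = 0.966), and RRN3 and NOP10 lost their call. The largest falls were in the small subunit processome. DDX10, an RNA helicase, had 671, 788, 789.8, 715 and 802 normalised counts in tryptophan-restricted libraries, against 3047, 2453, 2305, 2581 and 2384 in tryptophan controls (log2 fold change -1.76 with SE 0.08, adjusted p = 8.4e-10). WDR43 had 1732, 1406, 1659.6, 1756 and 1702 in restricted libraries, against 5593, 5333, 4899, 5317 and 4855 in controls (log2 fold change -1.66 with SE 0.07, adjusted p = 3.19e-10). In both genes every restricted library was lower than every control, with a gap wider than the spread inside a group.

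By role, median log2 fold changes ran from -0.64 for the box H/ACA particle to -1.22 for the box C/D particle. BYSL averaged 767 ± 63.4 normalised counts in tryptophan-restricted libraries and 2327 ± 42.7 in controls (SD, n = 5 each; log2 fold change -1.60 with SE 0.06, adjusted p = 2.96e-10). NOB1 fell by a like amount (-1.49, adjusted p = 1.4e-10), as did RRP12, which in yeast serves the export of both subunits (-1.44, adjusted p = 3.11e-10), and BRIX1 of the large subunit (-1.45, adjusted p = 1.78e-09). For RNA polymerase I the fall was steep in POLR1B (-1.54, adjusted p = 3.79e-08) and shallow in UBTF (-0.13, adjusted p = 0.0436). The sign of UBTF turned with equal totals, as given above. Among 9 other RNA polymerase I genes 5 fell and 0 rose. NCL averaged 13378 ± 1256 in restricted libraries and 30158 ± 3304 in controls (SD, n = 5 each; log2 fold change -1.17 with SE 0.08, adjusted p = 4.66e-08), and NPM1 averaged 16314 ± 1523 in restricted libraries and 32933 ± 3857 in controls (SD, n = 5 each; log2 fold change -1.01 with SE 0.08, adjusted p = 2.06e-07). Other factors of the pathway fell as well, 41 of 42 for the small subunit and 43 of 45 for the large subunit, with 0 higher in either, and so did 9 of 10 snoRNP assembly factors (the other one rose), 19 of 22 rRNA trimming and RNase MRP genes and 12 of 19 RNA polymerase III and TFIII genes, while ribosomal protein genes were mixed, 6 higher and 37 lower of 79 (median -0.18). MYC averaged 3639 ± 563 normalised counts in restricted libraries and 9088 ± 1118 in controls (SD, n = 5 each; log2 fold change -1.33, adjusted p = 1.46e-07). CD79A was at 359.6 to 532 normalised counts in tryptophan-restricted libraries and 258 to 338 in controls, again with MS4A1 not listed, and the part of that difference in the results was not tested.

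The tryptophan controls differed from the other controls in these genes. As a share of a library's normalised counts, which the scaling of a table does not change, the 41 genes together made up 0.650, 0.691, 0.696, 0.669 and 0.689% in tryptophan-restricted libraries, against 1.23, 1.18, 1.13, 1.17 and 1.12% in tryptophan controls. The other 4 control groups averaged 0.475% for histidine, 0.50% for methionine, 0.642% for phenylalanine and 0.631% for the branched-chain amino acids. The tryptophan-restricted libraries lay above the means of all the other control groups, nearest to phenylalanine and the branched-chain amino acids. The tryptophan controls lay far above all of these means. In 36 of the 41 genes the 5 tryptophan control libraries were all above the 19 libraries of the other 4 control groups, as shares of a library's normalised counts. The tryptophan-restricted mean was within the range of the other 4 control means in 11 genes, above it in 29 and below it in 1, FBL. Relative to the mean of the other control groups the median gene was at 0.42 in tryptophan-restricted libraries and at 1.17 in tryptophan controls (log2). None of these counts and medians was taken over all genes, so they do not set the 41 genes apart. MYC averaged 233 CPM (normalised counts rescaled to a common library total) in tryptophan-restricted libraries and 491 CPM in tryptophan controls, against 199 to 253 CPM in the other control groups. Low tryptophan and whatever set these controls apart from the other controls cannot be told apart here. The control groups of different tables were not tested against each other.

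**Figure D3:**
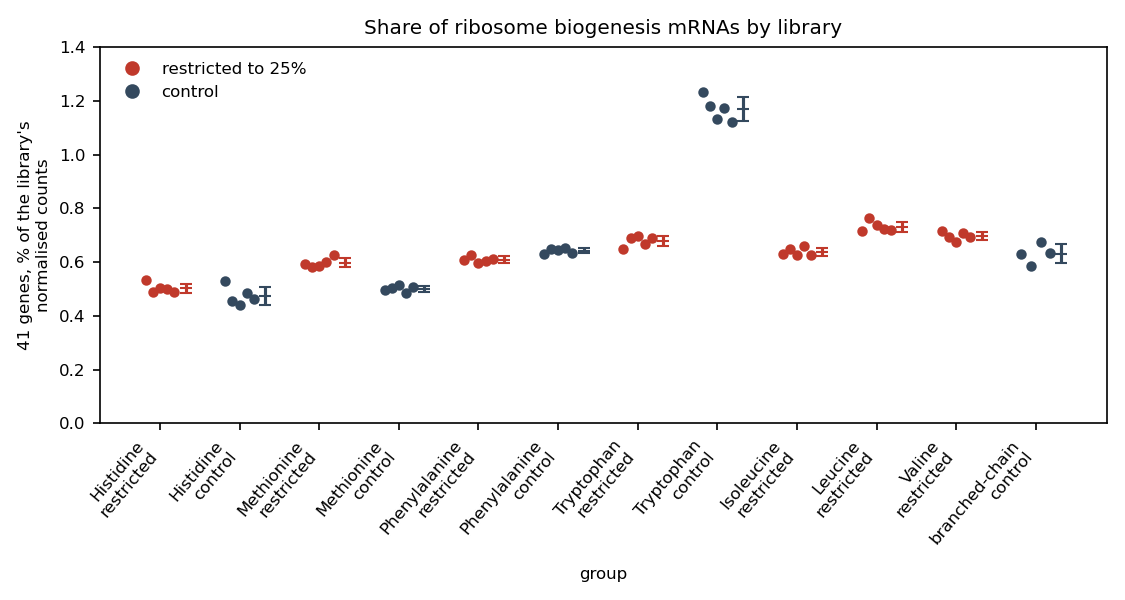
Share of each library's normalised counts taken by the 41 genes, in percent, by group; points are libraries and bars show the mean and SD. The tryptophan controls, at 1.12 to 1.23%, lie above every other library, and the tryptophan-restricted libraries, at 0.650 to 0.696%, lie among the other groups.

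Responses were compared directly among histidine, methionine, phenylalanine and tryptophan, whose controls are separate, by testing the difference between 2 restricted-minus-control contrasts in a joint limma fit. All 41 genes differed among the 4 responses in the F test (64.9% of 15774 genes did). The tryptophan response, which rests on the controls described above, is part of that test, and the test was not run without it. The difference of methionine minus histidine was called in 22 genes, 19 of them higher and 3 lower (32.7% of all genes were called; median difference 0.34). Methionine minus phenylalanine gave 24, with 21 higher and 3 lower (background 37.5%; median 0.33), and histidine minus phenylalanine 13, with 9 higher and 4 lower (background 15.3%; median -0.07). Every pair with tryptophan was called in 37 to 39 genes, all of them positive: 39 for methionine minus tryptophan (background 49.7%; median 1.41), 37 for histidine minus tryptophan (background 37.2%; median 1.09) and 37 for phenylalanine minus tryptophan (background 36.4%; median 1.01). These last 3 differences rest on the tryptophan controls described above.

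RRN3 set methionine apart, its response being 1.35 higher than that to histidine restriction (SE 0.11, adjusted p = 2.16e-12) and 1.28 higher than that to phenylalanine restriction (SE 0.11, adjusted p = 8.36e-12). NOP56 went the other way, its response to methionine restriction being 0.81 below that to histidine restriction (difference -0.81, adjusted p = 2.3e-05). NPM1 responses to methionine and phenylalanine restriction differed by -0.15 (SE 0.14, adjusted p = 0.43), and those to methionine and tryptophan restriction by -0.13 (SE 0.14, adjusted p = 0.475). FBL was, with NPM1, one of the 2 genes whose methionine and tryptophan responses were not called different (-0.38, SE 0.16, adjusted p = 0.0509).

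Histidine restriction moved single genes both ways. It called 14 of the 41 genes, 8 higher and 6 lower, where 27.9% of 17740 genes tested were called, 15.6% higher and 12.3% lower, so the share of the 41 that was called, 34.1%, is near the background. The median log2 fold change was 0.06, and none of the 6 RNA polymerase I genes was called. Restricted and control libraries were apart in 8 of the 41 genes (not counted over all genes). With libraries scaled by trimmed means the same number was called, but 10 were higher and 4 lower. The number that rose depended on single libraries, being 4 without histidine-restricted library 1 or 4 and 5 when its restricted library 2, its restricted library 3 or its control 3 was omitted, while the number that fell was 4 to 7 with each library left out in turn. Histidine control library 5 was high in ribosomal protein mRNA (0.34 relative to the control mean, against -0.09 to -0.08 in the other controls), and without it 8 genes rose and 7 fell.

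NOP56, the box C/D scaffold (chromosome 20, 2652145 to 2658393, plus strand), which also holds 5 snoRNA genes, had 3276, 2798, 2871, 2730.3 and 2886 normalised counts in histidine-restricted libraries, against 1919.5, 1345, 1405, 1568 and 1543 in histidine controls (log2 fold change 0.91 with SE 0.09, adjusted p = 9.23e-06). RIOK2 had 812, 916, 949.9, 825 and 779 in restricted libraries, against 565, 458, 500.3, 556 and 507 in controls (log2 fold change 0.73 with SE 0.09, adjusted p = 3.92e-05). Both rose without overlap. FBL had 3386, 2876, 2952, 3385 and 3091 in restricted libraries, against 4063, 4043, 4246, 4863 and 4719 in controls (log2 fold change -0.48 with SE 0.07, adjusted p = 0.000346). NHP2, a core protein of the box H/ACA particle, had 1129, 1154, 1108, 954 and 1139 in restricted libraries, against 1401, 1334, 1427, 1314 and 1679.9 in controls (log2 fold change -0.38 with SE 0.08, adjusted p = 0.00377). These 2 fell without overlap, so the box C/D particle again held genes that moved in opposite directions. DDX21, DKC1, HEATR1, RIOK1, MRTO4 and PES1 also rose, PES1 the most of them (0.37, adjusted p = 0.00613), and NOP10, BYSL, WDR12 and NOB1 also fell, NOB1 the most of them (-0.35, adjusted p = 0.00241). NPM1 was not called (0.04, adjusted p = 0.696). Of 42 other small subunit factors 13 rose and 4 fell, and of 45 other large subunit factors 10 rose and 2 fell. Among 9 other RNA polymerase I genes 1 rose and 3 fell. Ribosomal protein genes gave 2 higher and 31 lower of 79, and MYC fell (-0.64, adjusted p = 0.000323).

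Phenylalanine restriction called 8 of the 41 genes, 5 higher and 3 lower, where 10.2% of 17021 genes were called, 4.11% higher and 6.09% lower. The median log2 fold change was 0.12. NPM1 had 13100.3, 16386, 11929, 13747 and 12343 normalised counts in phenylalanine-restricted libraries, against 27977, 26870.2, 24563, 27228 and 26594 in phenylalanine controls (log2 fold change -0.99 with SE 0.10, adjusted p = 0.000105). It was lower in every restricted library, as it was in methionine restriction. NCL also fell, averaging 10519 ± 429 in restricted libraries and 13899 ± 387 in controls (SD, n = 5 each; log2 fold change -0.40 with SE 0.08, adjusted p = 0.00595). NOB1 had 1499, 2149, 1378, 1477 and 1439 in restricted libraries, against 2605, 2516, 2116, 2513 and 2079 in controls (log2 fold change -0.59 with SE 0.13, adjusted p = 0.0135). Its restricted library 2 stood above the other 4 and inside the range of the controls.

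RRP12 had 1652, 1769, 1819, 1729.8 and 1717 normalised counts in phenylalanine-restricted libraries, against 1158, 1226, 1300.1, 1362 and 1270.0 in controls (log2 fold change 0.46 with SE 0.08, adjusted p = 0.00376). RRP9 had 1215, 1907, 1134, 1189.7 and 1223 in restricted libraries, against 1061, 856, 855, 976 and 792 in controls (log2 fold change 0.53 with SE 0.15, adjusted p = 0.0385). Both rose without overlap, and RRP9 was again highest in restricted library 2. The RRP9 call was lost in 9 of the alternatives tried, at adjusted p from 0.0526 to 0.0944. WDR12 rose here (0.40, adjusted p = 0.00945), whereas it fell in methionine restriction, and the difference of methionine minus phenylalanine was -0.74 (adjusted p = 2.29e-07). DKC1 (0.34, adjusted p = 0.0316) and RIOK1 (0.43, adjusted p = 0.0222) completed the 5 that rose. Of the other factors 6 of 42 for the small subunit and 8 of 45 for the large subunit rose, with 0 and 1 lower, and ribosomal protein genes gave 0 higher and 32 lower of 79 (median -0.61). Among 9 other RNA polymerase I genes 0 rose and 3 fell, with TAF1D at -1.54 (adjusted p = 1.08e-05). MYC was not called (-0.08, adjusted p = 0.706).

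Phenylalanine restricted library 2 and control library 1 were high in ribosomal protein mRNA, with median levels of 0.09 and 0.61 relative to the control mean, against -0.90 to -0.72 in the other restricted libraries and -0.34 to -0.04 in the other controls. Without these 2 libraries 22 of the 41 genes were called, 14 higher and 8 lower, including the 8 above. Calls over all genes also went up, from 1736 to 4435. With equal totals 13 of the 41 were called, 10 higher and 3 lower (2295 over all genes, 67.0% of them higher). Leaving out 1 library could also lower the count among the 41, to 6 with 3 higher and 3 lower. That was so when any of the restricted libraries 1, 4 and 5 or of the controls 2, 3 and 5 was omitted. Without restricted library 2 alone the count was 11, with 6 higher and 5 lower, and without control library 1 alone 11, with 7 higher and 4 lower. The T-lineage markers, all 10 listed and none at 0 throughout a group, summed to 58725 to 62961 normalised counts in phenylalanine-restricted libraries and 48707 to 56645 in controls, and the part of this difference in the results was not tested.

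**Figure D4:**
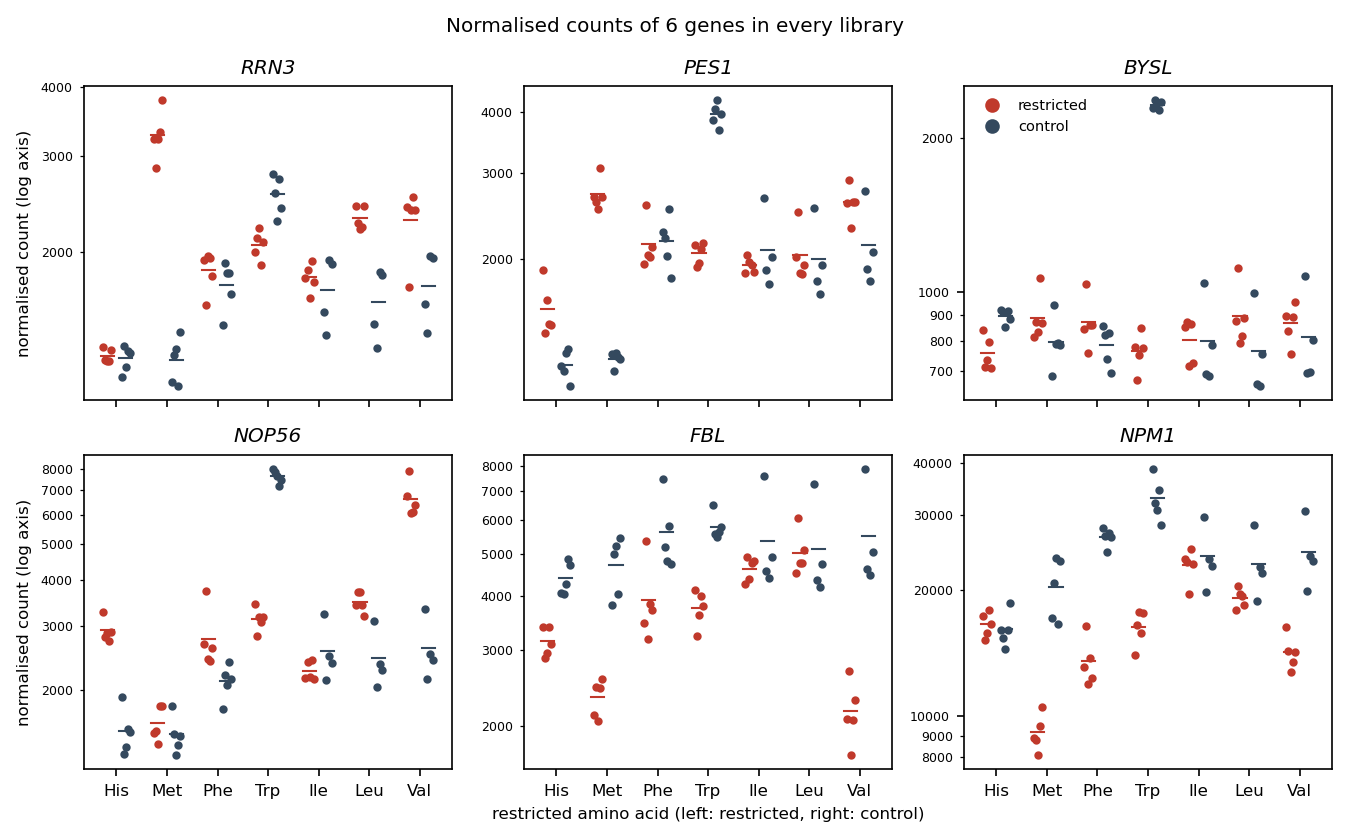
Normalised counts (log axis) of RRN3, PES1, BYSL, NOP56, FBL and NPM1 in every library of the 7 comparisons, with restricted libraries on the left and controls on the right of each pair; lines are group means. RRN3 is high in methionine restriction, NOP56 in valine restriction and in tryptophan controls, and BYSL in tryptophan controls; tables were normalised separately.

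The 3 branched-chain amino acids were set against the same 4 control libraries and gave unlike results. Isoleucine restriction called 0 of the 41 genes and 0 of all 16623 genes tested with limma (0% background), while 872 genes, 1 of them among the 41, had an unadjusted p under 0.05. That gene was POLR1B, at 0.63 (SE 0.23, unadjusted p = 0.0166, adjusted p = 0.797). The median log2 fold change was -0.02, and the genes lay between -0.21 and 0.63. No gene of the 41 had isoleucine-restricted libraries apart from the controls (not counted over all genes), and MYC was not called (0.20, adjusted p = 0.797).

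Leucine restriction raised 8 of the 41 genes and lowered 0, where 7.75% of 16488 genes were called, 3.41% higher and 4.33% lower. The median was 0.24, and restricted libraries were above all controls in 12 of the 41 genes (not counted over all genes). NOLC1 had 6503, 7642, 6197, 6344 and 6768 normalised counts in leucine-restricted libraries, against 3650.1, 3336, 4189.7 and 4068 in branched-chain controls (log2 fold change 0.81 with SE 0.10, adjusted p = 0.000726). POLR1A had 2344, 2659, 2354, 2526 and 2561 in restricted libraries, against 1145, 1809.8, 2102 and 1629 in controls (log2 fold change 0.61 with SE 0.15, adjusted p = 0.0288). Both were without overlap, and control library 1 was the lowest for POLR1A. Of the 6 RNA polymerase I genes 3 rose, the others being MYBBP1A (0.60, adjusted p = 0.00653) and RRN3 (0.53, adjusted p = 0.0156). Among 9 other RNA polymerase I genes, outside the 41, 0 rose and 1 fell. DDX21 (0.54, adjusted p = 0.012), NOP56 (0.53, adjusted p = 0.0202), RRP12 (0.44, adjusted p = 0.025) and the small subunit factor TSR1 (0.38, adjusted p = 0.0271) completed the 8. Of the other factors 6 of 42 for the small subunit and 8 of 45 for the large subunit rose, with 0 and 1 lower, and ribosomal protein genes gave 0 higher and 15 lower of 79 (median -0.47). MYC rose, averaging 5448 ± 591 in restricted libraries (SD, n = 5) and 3427 ± 463 in controls (SD, n = 4; log2 fold change 0.67, adjusted p = 0.00526).

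The leucine count rests on single libraries. Branched-chain control 1 was high in ribosomal protein mRNA (0.83 relative to the control mean, against -0.34 to -0.20 in the other 3). Without it 17 of the 41 genes were called, all higher, and calls over all genes went from 1277 to 1674. Without branched-chain control 3 the count among the 41 was 5 (844 over all genes). Without leucine-restricted library 3 or 4 it was 4 (511 and 512 over all genes), and without leucine-restricted library 5 it was 5 (553). In each of these fits none of the 41 was lower. The POLR1A call was lost in 6 of the alternatives, at adjusted p from 0.0502 to 0.0722.

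Valine restriction called 12 of the 41 genes, 10 higher and 2 lower, where 12.5% of 16771 genes were called, 5.13% higher and 7.36% lower. The median was 0.19. With equal totals 16 of the 41 rose, while over all genes 2757 were called, 63.7% of them higher (reported fit: 2096 and 41.1%). NOP56 had 6743, 7892, 6069, 6118 and 6403 normalised counts in valine-restricted libraries, against 3333, 2149.7, 2516 and 2425 in branched-chain controls (log2 fold change 1.36 with SE 0.14, adjusted p = 8.34e-05). Its partner FBL had 2071, 2676, 1712, 2058 and 2287 in restricted libraries, against 7860.0, 4601, 4472 and 5054 in controls (log2 fold change -1.32 with SE 0.18, adjusted p = 0.000572). Neither gene's groups overlapped, and 1 rose while the other fell. NPM1 had 16317, 14304, 12712, 13444 and 14248 in restricted libraries, against 30803, 19889, 24059.8 and 23316 in controls (log2 fold change -0.77 with SE 0.14, adjusted p = 0.00409). MRTO4, a relative of a ribosomal stalk protein that acts on the large subunit, had 1585, 1595, 1327, 1330.3 and 1355 in restricted libraries, against 1041, 555, 729 and 627 in controls (log2 fold change 1.00 with SE 0.17, adjusted p = 0.0027). Control library 1 was the highest control for all 4 of these genes. It was also high in ribosomal protein mRNA (0.85 relative to the control mean, against -0.35 to -0.20 in the other controls). Without it 16 of the 41 genes were called, 14 higher and 2 lower, and calls over all genes went from 2096 to 2657. With each library left out in turn 9 to 16 of the 41 were called.

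Large subunit assembly gave 4 of the 10 rises, with EBNA1BP2 (0.83, adjusted p = 0.0107), BRIX1 (0.81, adjusted p = 0.0039) and NOP16 (0.66, adjusted p = 0.0287) beside MRTO4. The hexamer windows of MRTO4 and EBNA1BP2 are printed above. DDX10 (0.57, adjusted p = 0.0167), RRP12 (0.54, adjusted p = 0.00824) and NOP14 (0.47, adjusted p = 0.0145) rose among the small subunit factors, and MYBBP1A (0.43, adjusted p = 0.0322) and NOP58 (0.46, adjusted p = 0.0457) completed the 10. Of 42 other small subunit factors 13 rose and 1 fell, and of 45 other large subunit factors 15 rose and 2 fell. Among 9 other RNA polymerase I genes 1 rose and 2 fell, with TAF1D at -1.30 (adjusted p = 0.000192). Ribosomal protein genes gave 0 higher and 27 lower of 79, and MYC was not called (0.31, adjusted p = 0.128). The 3 erythroid markers were at 0 or not listed in all valine-restricted libraries and summed to 10.4 to 24.6 normalised counts in controls, and the part of this difference in the results was not tested.

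Compared with each other after each table's control mean was taken away, so that the error of the shared controls does not enter, the 3 branched-chain restricted groups differed in 26 of the 41 genes (F test; 37.2% of 16091 genes did). NOP56 differed most (adjusted p = 5e-07), with log2 fold changes of -0.16 for isoleucine, 0.53 for leucine and 1.36 for valine. NOLC1 (adjusted p = 5.19e-06) was at 0.04 for isoleucine, 0.81 for leucine and -0.07 for valine. FBL (adjusted p = 5.38e-06) was at -0.18 for isoleucine, -0.00043 for leucine and -1.32 for valine. So NOLC1 was high in leucine restriction, and NOP56 high and FBL low in valine restriction.

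Across the 7 comparisons NPM1 was called lower in 4 comparisons and higher in 0, and the same counts held for FBL. RRP12 was called higher in 4, of which leucine and valine share controls, and lower in 1, the tryptophan comparison. BYSL, called in the histidine and tryptophan comparisons, and NOB1, called in the histidine, phenylalanine and tryptophan comparisons, were lower each time. BOP1, GNL3, GAR1, NAT10 and POLR1B were called in the tryptophan comparison alone. In the annotation 22 of the 41 genes overlap a gene on the opposite strand and 9 have named pseudogenes. The sources used here do not say whether the quantification used strand, so values of those genes are less certain.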

How the data were processed

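Bulk RNA-seq of 59 Jurkat libraries was analysed from 7 deposited tables, one per amino acid. The authors deposited a signal, normalised counts per gene, scaled within each table. Per the submitters' processing notes, DESeq2 1.44.0, kallisto 0.50.1 and FastQC 0.11.9 were used with the GRCh38 build. Strand setting, annotation release and read depth were not given in the sources at hand. Libraries were strand-specific, per the labels' protocols.

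Groups came from the labels. Genes with a table mean of at least 10 were tested on log2(value + 1) with limma 3.58.1 (R 4.3.3; lmFit, eBayes with trend, two-sided), with Benjamini-Hochberg adjustment over all genes of a table and a threshold of 0.05. Responses were compared in a joint limma fit of the 40 libraries with separate controls, and branched-chain groups by an F test on 15 restricted libraries. The scripts were tested on simulated data. Promoters came from RefSeq GRCh38.p14 and gene positions from a GENCODE annotation of GRCh38; summaries used Python 3.11.15, pandas 2.3.3 and numpy 2.4.6.

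The 41 genes and the gene lists were chosen with earlier results of these data known. Values in every library are given for the 2 called genes with the largest positive and the 2 with the largest negative log2 fold change in each comparison (mean of the higher group at least 100), and in methionine also for POLR1B, NCL, FBL, DKC1, NOP2, BYSL and PES1. Alternatives were pseudocounts of 0.25 and 5, a filter at a mean of 100 or none, trimmed-mean (30% and 5% trim) or equal-total scaling, a replicate block, each library left out, and, chosen after seeing the data, omission of 4 libraries high in ribosomal protein mRNA. No 2 libraries held identical values, and no column was unmapped.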

Additional observations from a re-analysis of the deposited data

Results flagged for a closer look

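In 8 of 64 groups examined, 1 library stood apart from the other 4 by a gap large against the group's range. Chance gives about 1 in 20 independent groups. These groups share libraries and are not independent, so the 8 cannot be judged by that rate. The median level of the 41 genes was 0.34 (log2, relative to the control mean) in leucine-restricted library 2, against 0.20 to 0.22 in the other 4 leucine-restricted libraries. NHP2 had 953.8 normalised counts in histidine-restricted library 4, against 1108 to 1154 in the others of its group. NOP56 had 3276 in histidine-restricted library 1, against 2730.3 to 2886 in the others. Methionine-restricted library 4 was high in BYSL, at 1064 against 817 to 872, and in PES1, at 3069.6 against 2529 to 2678. Phenylalanine-restricted library 2 was high in NOB1, at 2149 against 1378 to 1499, and in RRP9, at 1907 against 1134 to 1223. Without it NOB1 was at -0.70 (limma adjusted p = 0.00054) and RRP9 at 0.40 (adjusted p = 0.02). WDR43 had 1406 in tryptophan-restricted library 2, against 1659.6 to 1756 in the others.

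Responses to different amino acids differed by a test of the difference itself. Of the 41 genes, 22 differed for methionine minus histidine (32.7% of all 15774 genes did) and 13 for histidine minus phenylalanine (15.3%). For methionine minus phenylalanine it was 24 (37.5%). The pairs with tryptophan gave 37 for histidine minus tryptophan (37.2%), 39 for methionine minus tryptophan (49.7%) and 37 for phenylalanine minus tryptophan (36.4%). Those pairs rest on the tryptophan controls, which stood apart from the other controls. The F test over these 4 responses, tryptophan included, called 41 (64.9% of all genes). That over the 3 branched-chain restricted groups called 26 (37.2% of all genes).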

How the results depend on the processing

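Pseudocounts, filters and trimmed-mean scaling left every count of called genes within 1.5 times its reported value, and no count or gene given with its library values changed direction; UBTF and LTV1 turned above 0 in tryptophan restriction with equal totals. Exceptions arose in 2 comparisons. For phenylalanine, of 8 genes, equal totals gave 13, a replicate block 3 and leaving out the ribosomal-protein-high libraries (chosen after seeing the data) 22. Over all genes these fits called 2295, 803 and 4435, against 1736 in the reported fit. For leucine, also 8, the block gave 4 and leaving out those libraries 17. Over all genes these 2 fits called 771 and 1674, against 1277 in the reported fit. The cause was not tested. Leaving out each library gave 10 to 15 called for histidine, 27 to 29 for methionine, 6 to 11 for phenylalanine, 39 to 41 for tryptophan, 0 for isoleucine, 4 to 17 for leucine and 9 to 16 for valine. Equal totals raised the all-gene median (log2 fold change) to 0.15 in methionine, 0.15 in phenylalanine, 0.27 in tryptophan and 0.13 in valine (reported fits: 0.02, 0.03, 0.03 and 0.01), and the share of called genes that were higher to 62.6, 67.0, 70.9 and 63.7% (reported fits: 52.2, 40.3, 45.9 and 41.1%). The labels do not say that replicate numbers pair the libraries. Correlations of same-numbered deviations ran from -0.19 to 0.19, and in none of the comparisons did every pair exceed 0.1. In valine all pairs were positive, at 0.036 to 0.185. The block otherwise gave 13 for histidine, 28 for methionine, 39 for tryptophan, 0 for isoleucine and 18 for valine. For valine it called 3067 over all genes, against 2096 in the reported fit. In the branched-chain comparisons the block also left out restricted library 2, which has no control of its number. Blocking and the loss of that library cannot be told apart there. Read depth is unknown, so counting error could not be given.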
